A study of Mus musculus with 2 samples.

Results

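The interleukins and their receptors were followed on 2 one-colour arrays of mouse intestinal epithelial cells. They were taken as every non-control probe whose gene name begins with Il and a digit, which gave 83 genes with 106 probes (143 spots), out of 34797 gene names, as the files give them, and 55678 non-control probes. By their known roles, 38 of the genes encode ligands, 38 receptor chains and 6 antagonists, decoy receptors or binding proteins, and the remaining gene, Il4i1, encodes an enzyme induced by interleukin-4. Both groups came from male mice of wild-type genotype. Intestinal segments were incubated for 2 h, in one group with 0.5 µM of the primary bile acid cholic acid and in the other with vehicle (0.05% DMSO, 0.25% ethanol), and RNA was taken from their epithelial cells. Each group was 1 array, and both arrays were on the same slide. The titles carry the letters S_I, and the labels give neither the position along the intestine, the age or number of the mice nor the solvent used with cholic acid.

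Interleukins are secreted proteins through which lymphocytes, other leukocytes and epithelial cells signal to each other. Most bind receptors built from a specific chain and a chain shared within a family, such as the common gamma chain, gp130 or the IL-10 receptor beta chain, and signal through Janus kinases and STAT proteins, whereas the IL-1 and IL-17 families use their own adaptors that lead to NF-κB. In the gut, IL-22, IL-17 and IL-28 act on epithelial cells that carry their receptors, IL-18 and IL-33 are stored in epithelial and stromal cells, and IL-7 and IL-15 made by epithelial cells act on intraepithelial lymphocytes. Soluble antagonists and decoys, among them the IL-1 receptor antagonist, the IL-18 binding protein and the IL-22 binding protein, hold these signals in check.

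Each array value comes from a DNA probe of 60 bases, and the first 30 bases of the probes on which the results turn are given here, 5′ to 3′, as the array files list them. Coordinates are those of the whole probe on mm9, per the files, and no base is capitalised because no site within a probe was singled out. The exons and UTRs of mm9 were not used here. The first set holds the probes at least 2-fold higher on the cholic acid array, with the other probe of Il12rb1 (the line at 73343240) beside it.
Il7r (chr15:9435976-9436035, minus strand): atcaatcaactatgtttggatccagggaat
Il10ra (chr9:45062237-45062296, minus strand): gtcatgaccctaatctggtacgagagctcc
Il21r (chr7:132776725-132776784, plus strand): tgctgtgtaaaccttgttccttaatttaat
Il3ra (chr14:15187898-15187957, plus strand): agctcttgaagactgcgaggtgacgcctgt
Il27ra (chr8:86554885-86554944, minus strand): ggccttctagtctgatctgcttacggctag
Il6ra (chr3:89674054-89674113, minus strand): aggaccaagtgcagtaacggtagcccaaac
Il2rg (chrX:98460130-98460189, minus strand): catcaatcctttgatggaacctcaaagtcc
Il12rb1 (chr8:73345261-73345320, plus strand): agtttccctattagagtattgggcacttaa
Il12rb1 (chr8:73343240-73343299, plus strand): tttatccatcattttcgcgtctctgggaag
Il16 (chr7:90791654-90791713, minus strand): aacagttctgtgagatgcaccctgccatga
Il4i1 (chr7:52096115-52096174, plus strand): ctcttcagggcagacagaccacctacacta
The next set holds the measured probes with the most negative differences, with the other probe of Il22ra1 (the line at 135307221), which went the opposite way.
Il18bp (chr7:109164100-109164159, minus strand): aaactcaagcttcacttctaccctagatta
Il28ra (chr4:135263946-135264005, plus strand): tatacgtcttacgtgtttgtattacctgtc
Il18 (chr9:50389761-50389820, plus strand): aggatgaaaatggggataaatctgtaatgt
Il10rb (chr16:91425744-91425803, plus strand): gtaatttgagccctttgtgctcactaaaac
Il22ra1 (chr4:135310900-135310959, plus strand): acaaaaacacaaccagaactatctgagata
Il22ra1 (chr4:135307221-135307280, plus strand): tccacagaactggactctcttttcaaaggc
The last 2 probes had the largest bounds among genes well above background on 1 array alone.
Il22ra2 (chr10:19354355-19354414, plus strand): gctttgactttgtttgcttgggttttccct
Il17rd (chr14:27920311-27920370, plus strand): atagcactgtgccatatttttacattggcg

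Signals are the scanner software's background-subtracted brightness, in arbitrary units. They were compared after dividing each array by its 75th percentile of probes that stood well above background on both, a signal of 1060 in vehicle and 741 in cholic acid. A signal that reads the same on both arrays is therefore 1.43-fold higher in cholic acid on this scale, and all differences below are log2 of cholic acid over vehicle after that scaling. With 1 array per group there was no replicate check, no p-value and no standard error, so genes were sorted by a 2-fold limit alone. As yardsticks, single spots of probes printed 8 or more times had a median SD of 0.11 for the log2 difference (225 probes). It was 0.25 among the 67 with mean signals under 100. For some genes the difference is also set beside the robust SD of the 1000 probes nearest to it in signal. The SD of spots measures the spread within an array and the robust SD the spread among genes. Neither covers the spread between mice or segments. The 2 arrays stood apart in markers of the distal gut: Fabp6, the ileal bile acid-binding protein, had a signal of 47.3 in vehicle and 1320 in cholic acid (log2 difference 5.32), and the ileal bile acid transporter Slc10a2 had 97.9 and 353 (2.37). Of the 5 such markers, 3 (Fabp6, Slc10a2 and Gcg) were at least 2-fold higher and 1 probe of Cubn was at least 2-fold lower. With 1 array per group, a difference in gut position and an effect of cholic acid on these markers cannot be told apart. The part of gut position in the interleukin results was not tested.

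Receptor chains were measured more often than ligands. On both arrays, 23 of the 38 receptor genes but 9 of the 38 ligand genes had a probe well above background, as did 1 of the 6 antagonists and decoys (Il18bp) and Il4i1, which makes 34 of 83 genes. By probe this was 40 of 106 (37.7%), against 40.6% of all non-control probes. Another 4 genes were above background in cholic acid alone, 5 in vehicle alone and 40 on neither array. Among the families, 10 of 17 genes of the common gamma chain and IL-13 group, 6 of 13 of the IL-10 group, 5 of 9 of the gp130 group and 3 of 20 of the IL-1 group were measured on both arrays.

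**Figure D1:**
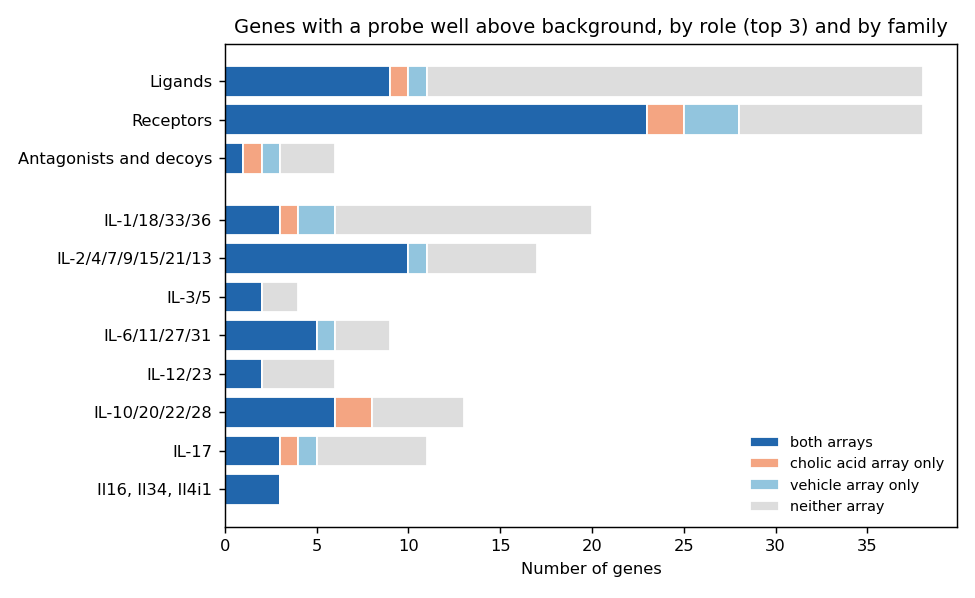
Number of interleukin genes (x axis) with a probe well above background on both arrays, on 1 array or on neither, by role and by family. Receptors reach 23 of 38 on both arrays and ligands 9 of 38, and the IL-1 group has the largest grey bar, with 14 of 20 genes on neither array.

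The ligand genes above background on neither array included the classical T cell cytokines Il2, Il3, Il4, Il5, Il9, Il13, Il17a, Il17f, Il21 and Il22, the monocyte and dendritic cell cytokines Il1a, Il1b, Il6, Il10, Il12a, Il12b, Il19, Il20 and Il23a, the IL-36 group Il1f6, Il1f8 and Il1f9, and Il1f10, Il17b, Il17c, Il25 and Il31. The receptors on neither were Il17re, Il18rap, Il1r1, Il1rap, Il1rapl1, Il1rapl2, Il1rl2, Il20ra, Il23r and Il31ra, and the antagonists Il1f5 (the IL-36 receptor antagonist), Il1r2 and Il13ra2. The signals of the 57 probes on neither array, which include further probes of measured genes, ran from 2.9 to 15.2 with a median of 3.51 in vehicle, and from 2.71 to 13.3 with a median of 3.31 in cholic acid. Il1b was printed 10 times, and its mean signals were 10.6 (spot-to-spot SD of log2 0.38) and 9.76 (SD 0.54), with 0 of 10 spots well above background in vehicle and 1 of 10 in cholic acid. Il4, also printed 10 times, read 3.51 and 4.62. At this signal over background, a low level of these genes was not detectable, and a difference in them cannot be given.

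Several receptor chains of lymphocytes read higher on the cholic acid array. Il7r was 4.36-fold, Il10ra 3.56-fold and Il21r 2.83-fold higher, while Il28ra, Il10rb, Il17ra, Il13ra1, both probes of Il17rc and 1 of the 2 of Il22ra1 lay below 0 by less than 2-fold. These sizes depended on the processing: the log2 differences of Il7r, Il10ra and Il21r, 2.12, 1.83 and 1.5 as reported, were 1.1, 0.96 and 1.00 with normexp background correction and 1.29, 1.00 and 0.66 with scaling on the spike-ins. Of the 40 measured probes, 10 (25.0%) were at least 2-fold higher, against 7.08% of all 22612 measured probes, and 0 were at least 2-fold lower, against 1.94%. Their median difference was 0.44 (all probes 0.13), with 28 above 0 and 12 below, against 60.3% above 0 among all measured probes. Of the 28 receptor probes, 8 were at least 2-fold higher with a median of 0.53, and of the 10 ligand probes 1 was, with a median of 0.09. Dim probes carried part of this: under a mean signal of 100, 6 of 20 interleukin probes were at least 2-fold higher against 10.9% of all and 0 lower against 1.69%. At 100 or over, 4 of 20 were higher against 4.62% and 0 lower against 2.1%. These 4 were close to the limit: Il16 (1.16), Il3ra (1.1), Il2rg (1.02) and the brighter probe of Il12rb1 (1.01). Above 0 lay 18 of the 20 dim probes (6400 of 8802 among all dim probes) and 10 of the 20 brighter ones (7234 of 13810). The count of 10 depended on the scaling and ran from 2 to 6 over 8 other scalings. With scaling on the spike-ins, which shifts every difference by -0.84, the direction turned: 2 of the 40 probes were at least 2-fold higher and 10 at least 2-fold lower (27.1% of all probes were), with a median of -0.39. Only the position relative to all probes was kept there, at 0.32 above their median. The count lower was 0 in the other 7. Across the 8 other scalings, spike-ins included, Il7r and Il4i1 stayed at least 2-fold higher in 8, Il21r in 7, Il10ra in 6 and Il16 in 5. Il3ra and the brighter probe of Il12rb1 did so in 1 each, and Il2rg, Il6ra and Il27ra in 0.

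**Figure D2:**
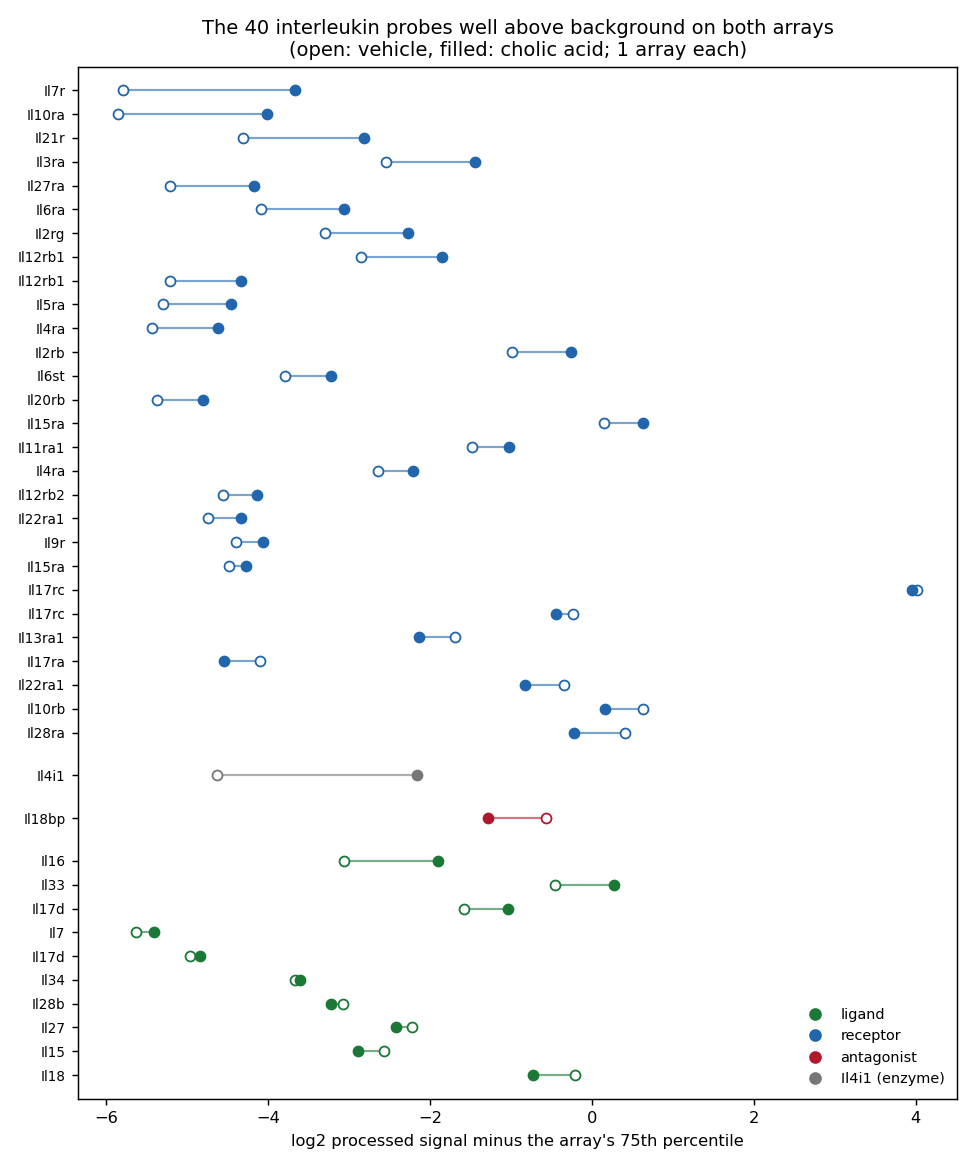
Scaled log2 signal of the 40 interleukin probes well above background on both arrays (x axis; 0 is the array's 75th percentile), 1 row per probe, open for vehicle and filled for cholic acid, with 1 array each and no error bars. Il7r, Il10ra, Il21r and Il4i1 have the longest lines with the filled point to the right, and Il28ra and Il18bp the longest with the filled point to the left; scaling on the spike-ins would move every filled point 0.84 to the left.

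Among receptors of the common gamma chain and IL-13 group, Il7r, the alpha chain of the IL-7 receptor on T cells and innate lymphoid cells, had signals of 19.1 ± 3.59 in vehicle and 58.2 ± 6.46 in cholic acid (± the scanner software's error of the spot). Its difference of 2.12 was over the robust SD of 0.57 of its neighbours in signal, of which 14.3% were also at least 2-fold higher. Il21r, the specific chain for IL-21, read 53.1 and 105, a difference of 1.5. The common gamma chain itself, Il2rg, which the IL-7 and IL-21 receptors share, read 108 and 153, a difference of 1.02 that lies at the 2-fold limit. For these 3 chains the cholic acid signal was above the vehicle signal even before scaling. Il2rb, the beta chain of the IL-2 and IL-15 receptors, read 535 and 617 (0.72). Il4ra, which serves IL-4 and IL-13, read 170 and 160 on one probe (0.43) and 24.5 and 30.1 on the other (0.81). Il15ra, which presents IL-15 to neighbouring cells, read 1170 and 1150 on one probe (0.49) and 47.5 and 38.2 on the other (0.20). Il9r, the IL-9 receptor chain, read 50.3 and 44.4 (0.34), with its other probe above background on neither array. The exception was Il13ra1, which pairs with Il4ra, without the common gamma chain, to form a receptor for IL-13 found on non-lymphoid cells. It read 329 and 168, a difference of -0.45. So 9 of the 10 probes of this receptor group lay above 0 and 1 below. Among all probes 60.3% lay above 0, and 6400 of the 8802 under a mean signal of 100 did (median 0.31). The probes nearest in signal to Il9r and to the dimmer Il15ra probe had medians of 0.32 and 0.31. Il9r thus lay close to its neighbours and that Il15ra probe below them. With scaling on the spike-ins the probes of Il2rb, Il4ra, Il15ra and Il9r were also below 0.

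Il3ra and Il5ra encode the specific chains for IL-3 and IL-5, cytokines of mast cells, basophils and eosinophils. Il3ra read 181 and 271 (1.1), just past the 2-fold limit, as were 6.1% of the probes nearest in signal. Il5ra was dim, at 26.9 and 33.7 (0.84).

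The receptors that signal through gp130 were above 0 in all 4 probes, 2 of them at the 2-fold limit. Among all probes 60.3% were above 0, as were 6400 of the 8802 with a mean signal under 100. Il27ra, the specific chain for IL-27, read 28.5 ± 4.59 and 40.8 ± 5.29 (1.03), and Il6ra, which binds IL-6, read 62.0 ± 7.02 and 88.6 ± 9.37 (1.03). Their neighbours in signal had robust SDs of 0.57 and 0.52, and 13.5% and 10.5% of them were at least 2-fold higher. The shared gp130 chain Il6st read 76.2 and 79.4 (0.58). Il11ra1, the IL-11 receptor chain, read 378 and 363 (0.46); mice carry a near-identical copy of this gene, so its signal may not be that of 1 locus. In scaling on the spike-ins the last 2 were below 0.

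For the IL-12 receptor, both probes of Il12rb1, the chain shared by IL-12 and IL-23 on T and natural killer cells, were higher in cholic acid. The brighter read 146 and 205 (1.01) and the dimmer, 2021 bases away, 28.5 and 36.8 (0.89). Il12rb2, the second chain of the IL-12 receptor, read 44.8 and 42.0 (0.42), and its other probe was above background on neither array.

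The IL-10 receptor group held differences of both signs. Il10ra, the IL-10-specific chain of leukocytes, read 18.3 ± 3.67 in vehicle and 45.6 ± 5.45 in cholic acid, a difference of 1.83 against a robust SD of 0.56 among its neighbours. Its partner Il10rb, which is widely expressed and also serves IL-22 and IL-28, read 1640 and 825 (-0.47). The 2 chains of a single receptor thus went opposite ways, Il10ra above 0 and Il10rb below 0. They did so in each of the 8 other scalings too, which re-use the same arrays and are no separate support. Il10ra was dim, and the probes nearest to it in signal had a median of 0.39, with 14.2% at least 2-fold higher. Those nearest to Il10rb had a median of -0.06. Il28ra, the specific chain for IL-28 (interferon lambda; Ifnlr1 in current naming), read 1400 and 634 (-0.63). Il22ra1, the epithelial chain of the IL-22 receptor, gave 2 answers: the probe that starts at base 5426 of the listed transcript read 830 and 419 (-0.47), and the probe that starts at base 1747 read 39.6 and 36.7 (0.41), a mean of -0.03. Il20rb, a chain shared by IL-19, IL-20 and IL-24, read 25.5 and 26.5 (0.57), with its other probe on neither array.

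The 3 measured probes of the IL-17 receptor group were all below 0, as were 8978 of all 22612 measured probes. Il17rc, which pairs with Il17ra to bind IL-17A and IL-17F, read 17200 and 11500 on one probe (-0.06) and 898 and 542 on the other (-0.21). Il17ra, the chain shared by most of this family, read 61.9 and 31.6 (-0.45). Under normexp background correction Il17ra turned to 0.09, and it lay below the median of all probes in each of the 8 other scalings.

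Ligands as a group lay close to the median of all probes. The exception was Il16, a chemoattractant for CD4+ cells that lymphocytes make: it read 127 ± 13.2 in vehicle and 198 ± 20.1 in cholic acid (1.16, robust SD of neighbours 0.49), the 1 ligand probe of 10 past the 2-fold limit. Il33, an alarmin of the IL-1 family kept in the nucleus of barrier cells, read 772 and 897 (0.73), which was under 2-fold. Il18, the other measured ligand of that family and a product of enterocytes, went the opposite way, at 913 and 445 (-0.52). The 2 lymphocyte growth factors made by epithelial cells did not move alike: Il7 read 21.3 and 17.4 (0.23, of mixed sign over the 8 other scalings), and Il15 read 178 and 99.8 (-0.32). The remaining ligands were Il17d, at 353 and 362 (0.55) and 33.9 and 25.7 (0.12), Il34, a ligand of the colony-stimulating factor 1 receptor, at 83.5 and 60.8 (0.06), and Il28b, at 126 and 79.1 (-0.16). Mouse Il28b (Ifnl3 in current naming) has a near-identical neighbour, so its signal is uncertain as to locus, and its other probe was above background on neither array. Il27, the p28 subunit of IL-27, read 226 and 138 (-0.20). The ligand median of 0.09 turned negative in 7 of the 8 other scalings, so no direction is given for the ligands as a group.

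Among antagonists and decoys, 1 gene was measured on both arrays and 1 each on a single array. Il18bp, the secreted protein that neutralises IL-18, read 716 ± 71.7 in vehicle and 304 ± 30.5 in cholic acid, a difference of -0.72 and the lowest of the 40 probes. Its ligand Il18 lay below 0 as well, and both did so in each of the 8 other scalings. Il22ra2, the soluble IL-22 binding protein made by dendritic cells, was not well above background in vehicle (13.6 ± 3.26) but was in cholic acid (67.2), at least 6.58-fold higher there. Its log2 bound depended on the processing: it was 2.72 as reported, 1.25 with normexp and 1.88 with scaling on the spike-ins. Il1rn, the IL-1 receptor antagonist, was above background in vehicle (36.6 ± 5.28) and not in cholic acid (14.0), at least 1.83-fold lower there, a bound that was lost with normexp.

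Il4i1, a secreted amino acid oxidase of B cells and antigen-presenting cells that shares only its name with the cytokines, had the largest difference of the 40 probes. It read 42.5 ± 5.37 in vehicle and 165 ± 16.8 in cholic acid (2.47, 5.55-fold, robust SD of neighbours 0.53). In the RefSeq table of GRCm38.p6, which was used for names alone, an overlapping locus named Il4i1b is listed, so the signal may not belong to 1 gene. Without Il4i1, 9 of 39 probes (23.1%) were at least 2-fold higher.

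Genes above background on 1 array alone have only a bound, the brighter signal over the higher of the dim signal and the lowest signal called above background on the dim array. On the cholic acid array alone, Il18r1, the IL-18-binding chain, read 8.79 and 30.8 (at least 3.02-fold higher), with its other probe on neither array. Il17rb, the receptor chain for IL-25, read 11.5 and 17.9 (at least 1.75-fold), and Il24, an IL-10 family ligand, 12.3 and 17.5 (at least 1.72-fold). With spike-in scaling these last 2 gave no fold, and the log2 bound of Il18r1, 1.59 as reported, was 0.76, and 0.73 with normexp. With Il22ra2, 2 of these 4 probes had bounds of at least 2-fold, against 49.2% of the 1834 such probes. On the vehicle array alone, Il17rd, an IL-17 receptor-like regulator of growth factor signalling, read 60.9 ± 6.80 and 13.6, at least 3.13-fold lower in cholic acid. Il2ra, the alpha chain of the IL-2 receptor found on regulatory and activated T cells, read 35.6 and 9.96 (at least 1.91-fold lower). Il11, a stromal gp130 cytokine, read 18.9 and 11 (at least 1.02-fold lower). Il1rl1, the IL-33 receptor ST2, read 15.9 and 4.62, from which no fold can be given, and its other 2 probes were above background on neither array. With normexp the log2 bound of Il17rd, -1.65 as reported, was -0.31, and Il2ra, Il1rn and Il11 gave no fold. So 1 of these 5 probes had a bound of at least 2-fold, against 11.1% of 1588.

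**Figure D3:**
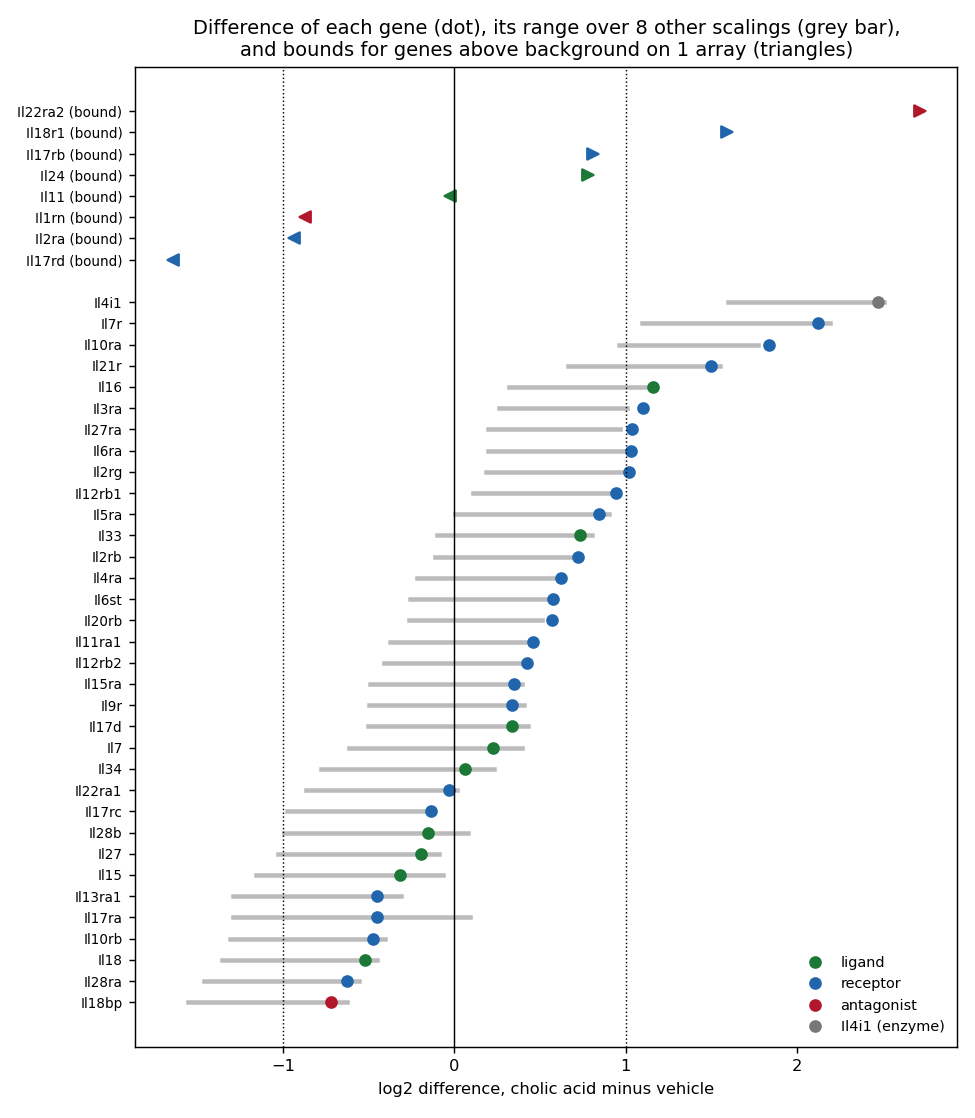
log2 difference (x axis, cholic acid minus vehicle) of each interleukin gene measured on both arrays (dots, mean over its measured probes), with the range over 8 other scalings as a grey bar, and bounds for genes above background on 1 array as triangles that point the way the difference may extend; dotted lines mark 2-fold. The bars of Il4i1 and Il7r stay to the right of the 2-fold line, and those of Il33 and of the genes under it down to Il34 cross 0, in all of these to the negative side under spike-in scaling.

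Ligands and receptors were then read together. For 30 interleukins with a known receptor, both the ligand and every receptor chain listed for it were above background on both arrays for 4: IL-7, IL-15, IL-28B and IL-34, the last with Csf1r as its receptor. For 14 the receptor was complete but the ligand was not, among them IL-4, IL-6, IL-10, IL-13, IL-17A and IL-22. For 2, IL-18 and IL-33, the ligand was measured but not the whole receptor: Il18rap and Il1rap were above background on neither array, Il18r1 in cholic acid alone and Il1rl1 in vehicle alone. For the other 10, among them IL-1, IL-23 and IL-25, neither side was complete. IL-20 and IL-24 have a second receptor, of Il22ra1 and Il20rb, whose 2 chains were both measured. These are mixed cell preparations, so a ligand and its receptor need not lie in the same cell, and in bulk RNA fewer cells of a type and less RNA per cell cannot be told apart.

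Where interleukin genes lie next to each other in the genome, within 200000 bases on mm9, neighbours shared a detection state in some clusters and not in others. The receptor cluster on chromosome 1 from 40180014 to 40605788 (Il1r2, Il1r1, Il1rl2, Il1rl1, Il18r1 and Il18rap) and the IL-1 ligand cluster on chromosome 2 from 24015564 to 24205153 (Il1f8, Il1f9, Il1f6, Il1f5, Il1f10 and Il1rn) had 0 of 6 genes each above background on both arrays. The type 2 cytokine cluster on chromosome 11 from 53426076 to 53538527 (Il4, Il13 and Il5) had 0 of 3. On chromosome 4 from 135263946 to 135310959, Il28ra and Il22ra1 were both measured, and on chromosome 7 from 132712550 to 132776784 so were Il4ra and Il21r. In 3 other pairs, such as Il12rb2 and Il23r on chromosome 6, 1 gene was measured on both arrays and its neighbour on neither.

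Of the 83 genes, 63 had 1 probe and 20 several. In 6 genes 2 probes were measured on both arrays, and their differences had the same sign in 5, the exception being Il22ra1. The measured interleukin probes had a median GC content of 44.2%, near the 43.3% of all measured probes. Those at least 2-fold higher had 43.3% and the 12 below 0 had 36.7%. After a correction for probe GC content, 6 probes were at least 2-fold higher, and the median of the interleukin probes lay 0.33 above that of all probes, against 0.32 as reported.

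**Figure D4:**
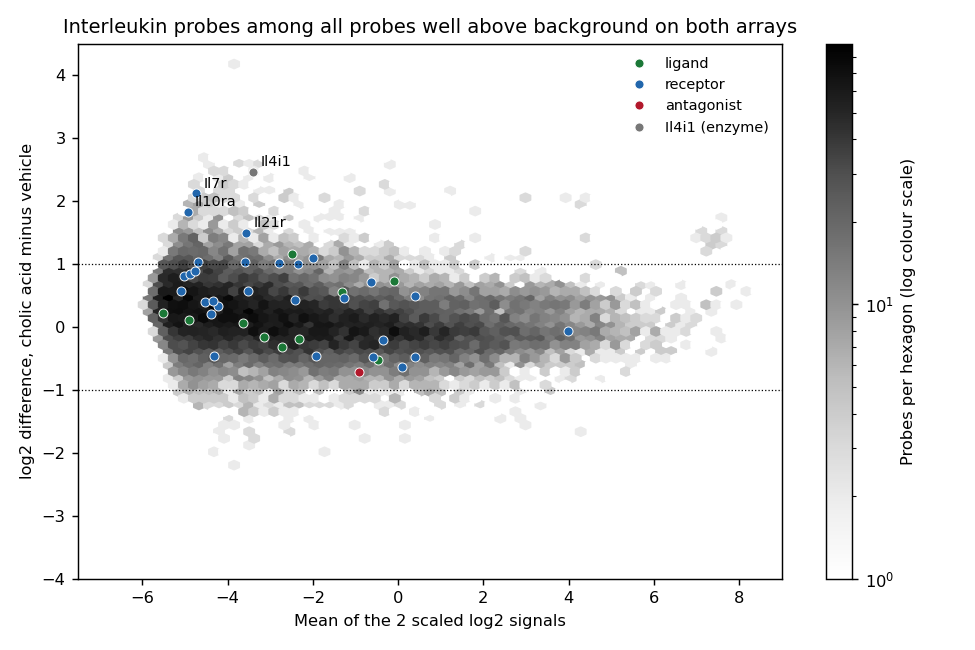
log2 difference (y axis, cholic acid minus vehicle) against the mean scaled log2 signal (x axis) for all 22612 probes well above background on both arrays (grey hexagons, log colour scale), with the 40 interleukin probes as coloured dots; dotted lines mark 2-fold. Il4i1, Il7r, Il10ra and Il21r stand at or near the upper edge of the cloud, and no interleukin probe lies under the lower line.

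The shared signalling chain partners and kinases of these receptors were taken from lists of related genes. Of 7 measured probes for receptor partners, 1 was at least 2-fold higher and 0 lower, against 7.08% and 1.94% of all probes: Csf2rb2, the IL-3-specific beta chain, at 19.9 and 53.6 (1.95), with its other probe above background on neither array. Its close relative Csf2rb, the beta chain of the IL-3 and IL-5 receptors, read 79.3 and 85.8 on one probe (0.63) and 44.1 and 38.3 on the other (0.31), and the pair are alike enough in sequence that signals may be shared. The lowest of these probes was that of Cd4, the receptor for IL-16 and the co-receptor of helper T cells, at 13200 and 5650 (-0.71), with its other probe on neither array. Ebi3, the second subunit of IL-27, was above background in cholic acid alone (15.7 and 23.9, at least 2.18-fold higher). All 15 genes of Janus kinases, STAT proteins and their inhibitors were measured. Of their 22 probes, 3 were at least 2-fold higher and 0 lower, against 7.08% and 1.94% of all probes, with a median of 0.04. The count of 3 became 1 in 7 of the 8 other scalings and 0 with the spike-ins. These were both probes of Jak3, the kinase that binds the common gamma chain, at 118 and 176 (1.09) and 74.5 and 108 (1.05), and Stat4, the STAT of the IL-12 receptor, at 145 and 257 (1.34). Il2rg and the brighter probe of Il12rb1, a chain of the IL-12 receptor, were among the 10 probes past the limit. Both lay at the limit (1.02 and 1.01), and they stayed past it in 0 and 1 of the 8 other scalings. The second chain of that receptor, Il12rb2, was not, at 0.42. In IL-1 signalling, 0 of 27 probes were at least 2-fold apart (median 0.20), with Map3k7 at 0.97 and probes of Traf6 at 0.91 and -0.85. In the processing of IL-1 and IL-18 by inflammasomes, 0 of 13 were (median -0.10), with Naip1 at -0.61 and Aim2 at 0.42.

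Known targets of these cytokines in epithelial cells were next. Of the 10 measured probes for targets of IL-22 and IL-17, 3 were at least 2-fold higher and 0 lower (median 0.34), against 7.08% and 1.94% of all probes. Duoxa2, which helps a dual oxidase to mature, read 110 and 752 (3.29), and Nos2, the inducible nitric oxide synthase, read 1105 and 2464 (1.67). Pigr, which carries IgA across the epithelium, read 132000 and 223000 on one probe (1.27) and 16500 and 12600 on the other (0.13). The enzyme Duox2 itself had 1 probe above background in cholic acid alone (at least 3.58-fold higher) and another at 0.20, and Fut2, a fucosyltransferase, was likewise (at least 2.29-fold higher). The antimicrobial protein Lcn2 went the opposite way, at 202 and 76.9 (-0.88), and in 6 of the 8 other scalings 1 of the 10 probes was at least 2-fold lower. The antimicrobial lectins Reg3b and Reg3g lay at 0.32 and -0.03, and S100a8, S100a9, Cxcl1, Cxcl5 and Ccl20 were above background on neither array. Of the 7 probes for targets of IL-4 and IL-13, 1 was at least 2-fold higher (median 0.15): Dclk1, a tuft cell kinase, at 18.2 and 35.3 (1.47), with its other 3 probes on neither array. Retnlb, a goblet cell protein, was above background in cholic acid alone, at 3.15 and 997 (at least 97.7-fold higher). The ligands of these pathways, Il22, Il17a, Il17f, Il4 and Il13, were above background on neither array.

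**Figure D5:**
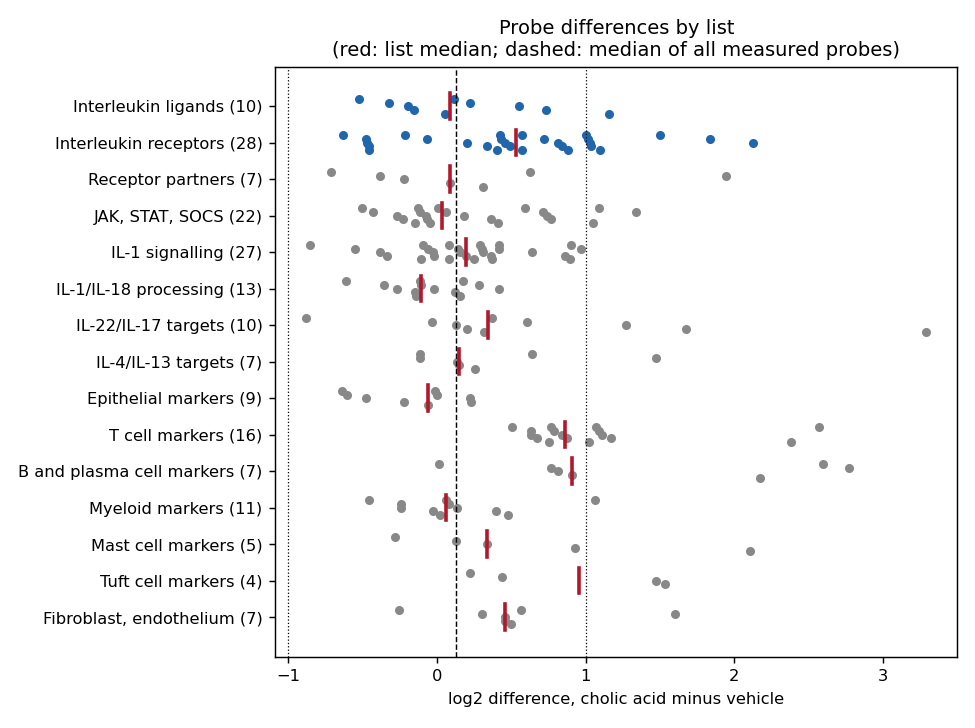
log2 difference (x axis, cholic acid minus vehicle) of each measured probe in the interleukin ligands and receptors (blue) and in lists of related genes and cell type markers (grey), with the number of probes in brackets, the list median in red and the median of all measured probes as a dashed line. The T cell markers, which do not include Cd4 (shown among the receptor partners), and most of the B and plasma cell markers lie to the right of that line, with medians of 0.86 and 0.91, while the epithelial markers lie on both sides of it; scaling on the spike-ins would move all points by -0.84.

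Because many of the receptors past the limit are known from lymphocytes, markers of the cell types in the preparation were read beside them. Epithelial cells, as labelled, were seen in all 8 of their marker genes, each above background on both arrays. Their 9 probes held 0 at least 2-fold apart (median -0.06), with a summed scaled level of 572 in vehicle and 512 in cholic acid. Epcam read 14900 and 6690 (-0.64). Krt8 read 44000 and 20300 on one probe (-0.60) and 161000 and 108000 on the other (-0.06). T cell markers were also present: all 14 genes were measured and 16 of 16 probes lay above 0, against 60.3% of all probes. Of the 16, 7 were at least 2-fold higher (median 0.86), against 7.08% of all probes. Cd4, the co-receptor of helper T cells, was not in this list, and its measured probe went the opposite way (13200 and 5650, -0.71). The listed T cell markers had a summed scaled level of 100.4 and 167, most of it from Gzma, at 87500 and 97600 (0.67). The lowest was Cd8a at 0.51 and the highest Cd2 at 2.57, and the count of 7 ran from 2 to 6 over the 8 other scalings. With scaling on the spike-ins 7 of the 16 probes were below 0 and 2 at least 2-fold higher (median 0.02). Of 8 B and plasma cell genes, 6 were measured on both arrays with 3 of 7 probes at least 2-fold higher (median 0.91, summed scaled level 3.27 and 4.52). Most of that sum came from the plasma cell gene Igj, at 3100 and 2190 (0.015). Of the B cell genes, Cd79b read 134 and 640 (2.77), while Ms4a1 (3.73 and 164) was above background in cholic acid alone. Myeloid markers had 1 of 11 probes at least 2-fold higher, Itgax at 319 and 467 (1.07), with a median of 0.07 and summed levels of 64.4 and 55.1. Cd74, at 45000 and 26600 (-0.24), made up most of these sums. Mast cell markers had 1 of 5 (Tpsb2, median 0.34, 0.616 and 1.52), tuft cell markers 2 of 4 (Gfi1b and the Dclk1 probe already given, median 0.95, 0.235 and 0.373) and fibroblast and endothelial markers 1 of 7 (Dcn, median 0.46, 6.57 and 8.28). Above background on neither array were 4 of 9 mast cell genes, 3 of 7 tuft cell genes and 3 of 9 fibroblast and endothelial genes. The medians therefore rest on part of each list. Most of the fibroblast and endothelial sum came from 1 probe of Kdr, at 6430 and 5550 (0.30). The part of these cells in the higher signals of Il7r, Il10ra, Il21r, Il2rg, Il12rb1, Il16 and Il4i1 was not tested.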

How the data were processed

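RNA from mouse intestinal epithelial cells was amplified, labelled with Cy3 and hybridised to 1 array per group, per the labels' protocols. The deposited scanner files hold intensities from Agilent Feature Extraction, version 10.7.1.1 per the file headers and 9.5.1.1 per the submitters' processing notes, on an mm9 design. Per the file headers, background was subtracted from this intensity, spatial trends were removed within each array, and dim spots got surrogate values. A separate table of intensities deposited by the authors was also read, whose scale is linear and whose centring is not stated (median 10.09 on each array); their log2 values correlated with the scanner signals across probes at r = 0.99987 and 0.99984. Other deposited columns hold flags for each spot.

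Flagged outlier spots were left out, 124 on the vehicle and 119 on the cholic acid array, and no spot was saturated. A probe's value is the mean log2 processed signal over its spots. It was well above background where over 50% of its spots were flagged so, as 24200 probes were in vehicle and 24446 in cholic acid. The 75th percentile over probes well above background on both arrays was subtracted, because under 50% of probes were. A gene's value is the mean over its measured probes. With 1 array per group no test was run, and the number of arrays limits the precision. Every interleukin gene above background on an array is named. Of related lists, members at least 2-fold apart were named, or otherwise up to 2 with the largest difference. Some genes that this rule names are not reported here. The interleukin genes, the lists and the rules were chosen with earlier results of these data known, and the distal gut markers with their values known. Current names came from a RefSeq table of GRCm38.p6, which named 99 of the 106 probes by accession.

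Alternatives were scaling on the percentile of all probes or on the median, quantile normalization, loess on mean signal, normexp with an offset of 50 (limma 3.58.1 in R 4.3.3), scaling on 7 spike-in probes, the authors' values, 2 other filters on dim probes, flagged spots kept, other limits and detection rules, and a GC content lowess (span 0.3). The calculations (Python 3.11.15, pandas 2.3.3, statsmodels 0.14.6) were tested on simulated data.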

Additional observations from a re-analysis of the deposited data

How the results depend on the processing

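The count of 10 interleukin probes at least 2-fold higher became 4 with the percentile over all probes, 5 with centring on the median, in quantile-normalized signals and in the authors' own values, 6 with loess, with signals of at least 50 on both arrays and with the lowess on GC content (chosen after seeing the data), 3 with normexp or a 3-fold limit, 2 with the spike-ins and 16 of 61 probes with the positive and significant flag. The filter on signals of at least 50 kept 25 interleukin probes, so its share was 24.0%, near the 25.0% as reported. The count of 0 lower became 10 with the spike-ins, 3 with the positive and significant flag (2.98% of all probes) and 2 at a 1.5-fold limit (7.23%), where 15 were higher (37.5% against 19.4%). The background of higher probes was 3.95%, 4.99%, 3.94%, 3.98%, 4.44%, 4.92%, 6.94%, 2.68%, 1.81%, 1.2% and 14.0% in the order of the settings above, with the spike-in background of lower probes at 27.1%. Relative to the median of all probes, the interleukin median was 0.32 higher, 0.19 with normexp and at most 0.36 (signals of at least 50) elsewhere. The shift of the median of all probes ran from -0.84 (spike-ins) to 0.11 (normexp). With the positive and significant flag, 53 genes counted as above background on both arrays in place of 34. The cause of these differences was not tested, except that flags and limits alter the probes counted. The genes of the 10 higher probes kept a positive difference in each of the 8 other scalings. These genes were picked for a 2-fold difference on the same arrays. Constant shifts of -0.23, -0.13 and -0.84 in some of the scalings could not turn a 2-fold difference negative. The kept sign is therefore no separate support. No paired analysis was possible because each group is 1 array. Signal over background limits the 40 genes on neither array, and 1 array per group limits every difference.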
